A study of Mus musculus with 27 samples.

Results

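Notum is a single gene, 1 of the 24454 genes in the expression table. It was selected on its measured CPM values. In each of 9 mouse mammary tumour cell lines its RNA was higher with Wnt3a and lower with transforming growth factor β (TGFβ) than without cytokine. Its changes with the cytokines are therefore given as a description, without a test. Notum encodes a secreted carboxylesterase that removes the palmitoleate lipid from Wnt proteins. A Wnt protein needs this lipid, which the acyltransferase Porcn attaches, to bind its Frizzled receptors, so Notum inactivates Wnt ligands outside the cell. In many tissues Notum is itself a target of canonical Wnt/β-catenin signaling and so part of a negative feedback. TGFβ induces an epithelial-mesenchymal transition (EMT) in many mammary epithelial cells, a change in which cells lose cell-cell adhesion and gain mesenchymal traits.

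The lines came from tumours of MMTV-PyMT mice on the FVB/N background, in which the mammary tumour virus promoter drives the polyoma middle T oncogene. All lines carried this transgene and a mutant allele of Bcl9 and Bcl9L, coactivators that bridge β-catenin and Pygopus. The ΔHD1 mutant lacks the domain that binds Pygopus and the ΔHD2 mutant lacks the domain that binds β-catenin. A floxed allele accompanied the mutant one in lines named fl, and Cre from an adenovirus had deleted it in culture in the lines ΔHD1/- and ΔHD2/-, called recombined here. There were 2 lines each of ΔHD1/fl, ΔHD1/- and ΔHD2/fl, and 3 of ΔHD2/-. Each line was measured without cytokine, with Wnt3a (100 ng/ml, 3 days) and with TGFβ (2 ng/ml, 4 days), giving 27 RNA-sequencing libraries in 12 groups. The labels give 4 days for the untreated cells, so untreated and Wnt3a libraries also differ in labelled time, and the effects of time and Wnt3a cannot be told apart. The Wnt3a and TGFβ comparisons share the untreated libraries. Values are CPM, a gene's reads scaled to the same total of assigned reads in every library. Libraries held 21.86 to 33.69 M such reads (M for mega), so that 3 reads, the limit a count of 0 allows, stood for 0.089 to 0.137 CPM.

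Some lines did not match their label of epithelial tumour cells. In ΔHD1/fl line 2 the epithelial genes Cdh1, Epcam, Krt8 and Krt18 were each at or below 0.522 CPM without cytokine, while Vim, a mesenchymal intermediate filament gene, was at 4188 CPM. In ΔHD1/- line 2 Cdh1 was at 0.237 CPM and Epcam at 0 CPM, while Krt8 was at 1089 CPM and Vim at 3678 CPM. The other 7 lines had Cdh1 at 606 CPM or more. Genes that mark immune and endothelial cells summed to at most 26.2 CPM in any library, and 7 of 10 stayed under 1 CPM in every untreated library. The gene levels of ΔHD2/- lines 2 and 3 correlated at 0.993 to 0.997, whereas replicates of other pairs had 0.807 to 0.957. Both lines count separately here, as the labels have them, although their independence was not shown.

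Notum lies on the minus strand of chromosome 11 (GRCm38, 120653788 to 120661193). The annotation used here (GENCODE) lists 4 transcripts for it, of which 3 are protein coding, with up to 12 exons and 2408 bases of exon in all. On the opposite strand the antisense gene Notumos shares 708 bases of exon sequence with Notum exons, and Myadml2os shares 210 bases. Neither antisense gene has a row in the table. The library kit keeps strand, but the strand setting of the counting is not given in the sources used here, so whether antisense reads are included in the Notum count cannot be told. No promoter or protein sequence of Notum is printed.

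Without cytokine all 9 lines expressed Notum. ΔHD1/fl lines 1 and 2 had 84.1 and 432 CPM, and ΔHD1/- lines 1 and 2 had 60.4 and 58.9 CPM. It was at 28.5 and 10.3 CPM in ΔHD2/fl lines 1 and 2, and at 13.5, 36.4 and 35.8 CPM in ΔHD2/- lines 1, 2 and 3. The lowest of these libraries still held 278 Notum reads. The highest line, ΔHD1/fl line 2, exceeded the lowest, ΔHD2/fl line 2, by 42.0-fold, and all 4 ΔHD1 lines lay above all 5 ΔHD2 lines.

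With Wnt3a, the canonical Wnt ligand, Notum was higher than without cytokine in 9 of 9 lines. ΔHD1/fl lines 1 and 2 had 503 and 1284 CPM, and ΔHD1/- lines 1 and 2 had 334 and 108 CPM. It was at 235 and 75.3 CPM in ΔHD2/fl lines 1 and 2, and at 32.7, 198 and 203 CPM in ΔHD2/- lines 1, 2 and 3. Only both ΔHD1/fl lines exceeded the highest untreated library, so the levels with and without Wnt3a overlapped between lines although each line rose. ΔHD1/fl line 2 was again highest, and ΔHD2/- line 1 was lowest. The order of the lines otherwise shifted, with ΔHD1/- line 2 now below 3 of the ΔHD2 lines.

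With TGFβ, Notum was lower than without cytokine in 9 of 9 lines. ΔHD1/fl lines 1 and 2 had 3.20 and 48.1 CPM, and ΔHD1/- lines 1 and 2 had 0.119 and 0.252 CPM. It was at 1.17 and 0.817 CPM in ΔHD2/fl lines 1 and 2, and at 0.416, 2.77 and 2.46 CPM in ΔHD2/- lines 1, 2 and 3. In 8 of 9 lines the level was below that of the lowest untreated library, the exception being ΔHD1/fl line 2. The ΔHD1/- libraries held only 3 and 7 Notum reads, so line 1 sat at the limit of 3 reads. Both ΔHD1/- lines stood below the ΔHD1/fl lines without cytokine too, but above all ΔHD2 lines, and were at the bottom of all 9 with TGFβ.

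**Figure D1:**
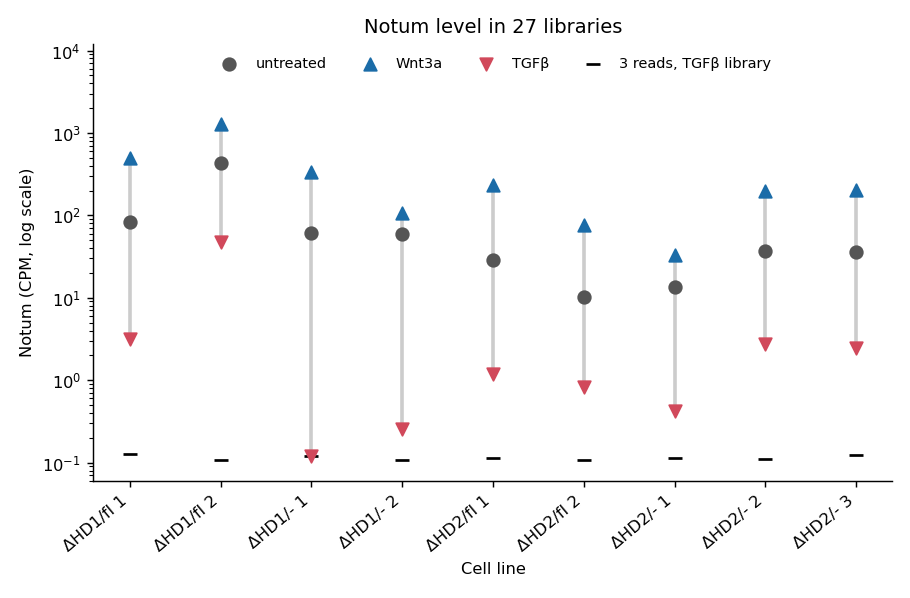
Notum in CPM on a log axis (vertical) in each of the 9 cell lines (horizontal), untreated (circles), with Wnt3a (triangles up) and with TGFβ (triangles down). The horizontal ticks mark the CPM of 3 reads in the TGFβ library. In every line the Wnt3a point is highest and the TGFβ point lowest, from 1284 CPM in ΔHD1/fl line 2 with Wnt3a down to 0.119 CPM in ΔHD1/- line 1 with TGFβ.

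As group means without cytokine, ΔHD1/fl lines had 258 ± 246 CPM of Notum (SD, n = 2), and ΔHD1/- lines had 59.7 ± 1.07 CPM (SD, n = 2). The mean of ΔHD2/fl lines was 19.4 ± 12.9 CPM (SD, n = 2) and that of ΔHD2/- lines 28.6 ± 13.0 CPM (SD, n = 3). Wnt3a gave group means of 893 ± 552, 221 ± 160 and 155 ± 113 CPM (SD, n = 2 each) in ΔHD1/fl, ΔHD1/- and ΔHD2/fl lines, and of 145 ± 97.0 CPM (SD, n = 3) in ΔHD2/- lines. TGFβ gave 25.7 ± 31.8, 0.186 ± 0.0939 and 0.994 ± 0.251 CPM (SD, n = 2 each), and 1.88 ± 1.28 CPM (SD, n = 3), in the same order. When the 12 groups were ranked by mean log2(CPM + 1), only 3 of the 11 neighbouring pairs differed by more than the larger of both SDs. These were ΔHD1/fl with Wnt3a above ΔHD1/fl untreated (9.65 and 7.58), ΔHD1/- untreated above ΔHD2/- untreated (5.92 and 4.76), and ΔHD2/fl with TGFβ above ΔHD1/- with TGFβ (0.99 and 0.24).

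Per line, the CPM ratio of Wnt3a over untreated ranged from 1.83 to 8.27, with a median of 5.53. The smallest ratio was that of ΔHD1/- line 2 (95% exact binomial interval of the ratio 1.73 to 1.94), and the next that of ΔHD2/- line 1 (2.42, 2.12 to 2.76). The largest was that of ΔHD2/fl line 1 (8.27, 7.63 to 8.97), followed by ΔHD2/fl line 2 at 7.31 (6.45 to 8.32). These intervals cover counting error only, with 1 library per line and treatment, and are no measure of whether lines differ. On the log2(CPM + 1) scale the mean change was 2.15 ± 0.74 (SD, n = 9 lines), from 0.86 to 3.00. It was the 14th largest rise of the mean among the 13270 genes that reached 1 CPM in at least 2 libraries.

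The CPM ratio of untreated over TGFβ ranged from 8.98 to 507, with a median of 24.3. TGFβ left a median of 4.11% of the untreated level. The fall was least in ΔHD1/fl line 2 (8.98-fold, 8.49 to 9.51) and in ΔHD2/fl line 2 (12.6-fold, 8.23 to 20.2). It was greatest in both ΔHD1/- lines, at 507-fold in line 1 (173 to 2463, from 3 reads) and 234-fold in line 2 (113 to 582, from 7 reads). The ratios of the other 7 lines were 32.5 at most. On the log2(CPM + 1) scale, which understates falls to low levels, the mean change was -3.92 ± 1.10 (SD, n = 9 lines), the 6th largest fall among the 13270 genes. Between Wnt3a and TGFβ the level of 1 line spanned 26.7-fold (ΔHD1/fl line 2) to 2806-fold (ΔHD1/- line 1).

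Treatment accounted for 73.9% of the sum of squares of Notum over the 27 libraries and cell line for 22.5%, with 3.57% left. For the median gene of the 13270, treatment accounted for 10.7% and cell line for 66.1%. Since Notum was chosen for its changes with treatment, this is a description.

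Genotypes were compared under each treatment, a measure that the choice of Notum did not use. ΔHD1/- was set against ΔHD1/fl, which both carry the ΔHD1 allele and differ in the remaining floxed allele. The ΔHD1/- lines had also been infected with the Cre adenovirus and sorted. The methods of the study name a control virus without Cre, but the labels do not say whether the fl lines measured here had received it. The untreated difference was -1.66 ± 1.10 on the log2 scale (SE; limma adjusted p 1), that with Wnt3a -2.07 ± 1.10 (adjusted p 0.903) and that with TGFβ -3.60 ± 1.10 (SE; limma adjusted p 0.315, unadjusted p 0.00432). Under each treatment both ΔHD1/- lines lay below both ΔHD1/fl lines. Notum passed the threshold in none of these comparisons, in which 0.0678%, 0.0452% and 0.0301% of the 13270 genes were called. With 2 lines against 2, groups did not overlap for 26.9%, 23.6% and 29.5% of genes, so the separation of Notum was a common one. The size of the difference moved with the line left out. Without ΔHD1/fl line 2 the values were -0.49 untreated, -1.40 with Wnt3a and -1.83 with TGFβ, and without line 1 they were -2.84, -2.75 and -5.37 (TGFβ limma adjusted p 0.0581). The Wnt3a value was -2.88 without ΔHD1/- line 1 and -1.26 without ΔHD1/- line 2. With TGFβ the value was -5.50 with a pseudocount of 0.1 and -6.86 with edgeR.

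ΔHD2/- was set against ΔHD2/fl in the same way, with the same limit. The log2 fold changes were 0.57 ± 1.00 without cytokine (SE; limma adjusted p 0.921), -0.27 ± 1.00 with Wnt3a (adjusted p 0.988) and 0.41 ± 1.00 with TGFβ (SE; limma adjusted p 0.999). Lines of both genotypes overlapped under every treatment. The TGFβ value was 0.16 to 0.86 over the lines left out. Of all genes, 0.55%, 0.686% and 0.354% were called in these comparisons. With standard errors of 1.00 on the log2 scale, these comparisons do not show that Notum was alike in both genotypes.

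The difference in response between recombined and fl lines is given without a test, since the responses chose the gene. For Wnt3a it was -0.41 ± 1.55 (SE, log2) in the ΔHD1 and -0.85 ± 1.42 in the ΔHD2 family. For TGFβ it was -1.94 ± 1.55 in the ΔHD1 and -0.16 ± 1.42 in the ΔHD2 family. The ΔHD1 value for TGFβ was -3.83 with a pseudocount of 0.1 and -4.80 with edgeR. The ΔHD2 value for Wnt3a was -1.07 to -0.44 over the lines left out. With cell line as a block the values were the same and the standard errors 0.75 in the ΔHD1 and 0.68 in the ΔHD2 family. The Wnt3a responses were 2.57 and 1.57 in ΔHD1/fl lines 1 and 2 and 2.45 and 0.86 in ΔHD1/- lines 1 and 2, so they interleaved. In the ΔHD2 family they were 3.00 and 2.76 in ΔHD2/fl lines and 1.21, 2.41 and 2.47 in ΔHD2/- lines, where both fl lines lay above all recombined lines. The Wnt3a responses of 30.8% of genes separated these genotypes, in either direction. The TGFβ changes were -4.34 and -3.14 in ΔHD1/fl and -5.78 and -5.58 in ΔHD1/- lines, without overlap, as for 28.9% of genes. They were -3.76 and -2.64 in ΔHD2/fl and -3.36, -3.31 and -3.41 in ΔHD2/- lines, with overlap.

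Taking each cell line as 1 value, the 5 ΔHD2 lines were lower in untreated Notum than the 4 ΔHD1 lines by 2.22 on the log2(CPM + 1) scale, at 4.53 ± 0.80 (SD, n = 5) against 6.75 ± 1.36 (SD, n = 4). The groups did not overlap, and the two-sided exact permutation p was 0.0159, the smallest this design allows. After adjustment over 10 such tests it was 0.159 (exact permutation test), so it did not pass. ΔHD2/- lines 2 and 3, which were nearly alike, count separately in this test. Over the alternatives, with both averaged among them, the adjusted p was 0.119 to 0.357 (exact permutation test). Of the 13270 genes, 7.26% separated both families in the same way without cytokine. With Wnt3a the difference was -1.71 (exact permutation p 0.111, adjusted 0.370), and with TGFβ it was -0.81 (exact permutation p 0.683), with overlap in both, where 6.72% and 6.68% of genes separated the families. The TGFβ difference was 0.39 without ΔHD1/fl line 2. The 5 recombined lines against the 4 fl lines differed by -0.66, -1.25 and -1.48 without cytokine, with Wnt3a and with TGFβ (exact permutation p 0.571, 0.254 and 0.222). Without ΔHD1/fl line 2 these differences were 0.30, -0.60 and -0.41. Whether a recombined line derives from the fl line of the same number is not given by the labels.

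Axin2, the scaffold protein of the β-catenin destruction complex and a general target of canonical Wnt signaling, was set beside Notum in the same lines. With Wnt3a it went from 0.131 to 2.97 CPM untreated to 13.5 to 80.8 CPM, without overlap. Its change was 4.17 ± 0.80 (SD, n = 9 lines) on the log2(CPM + 1) scale, and larger than that of Notum in each line. With TGFβ its change was -0.40 ± 0.67 (SD, n = 9 lines), lower in 8 of 9 lines, and it was not called (limma adjusted p 0.130). Axin2 had only 3 to 73 reads in an untreated library, and since it was at 2.97 CPM or less untreated, log2(CPM + 1) leaves little room for a fall. The sizes of the TGFβ changes of both genes are therefore not compared. Per kilobase of exon, Notum exceeded Axin2 in 9 of 9 untreated lines, by 8.71-fold to 679-fold with a median of 150. With Wnt3a the range was 2.21-fold to 51.1-fold, with a median of 18.3. With TGFβ Notum was above Axin2 in 7 of 9 lines, with a median of 8.38.

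**Figure D2:**
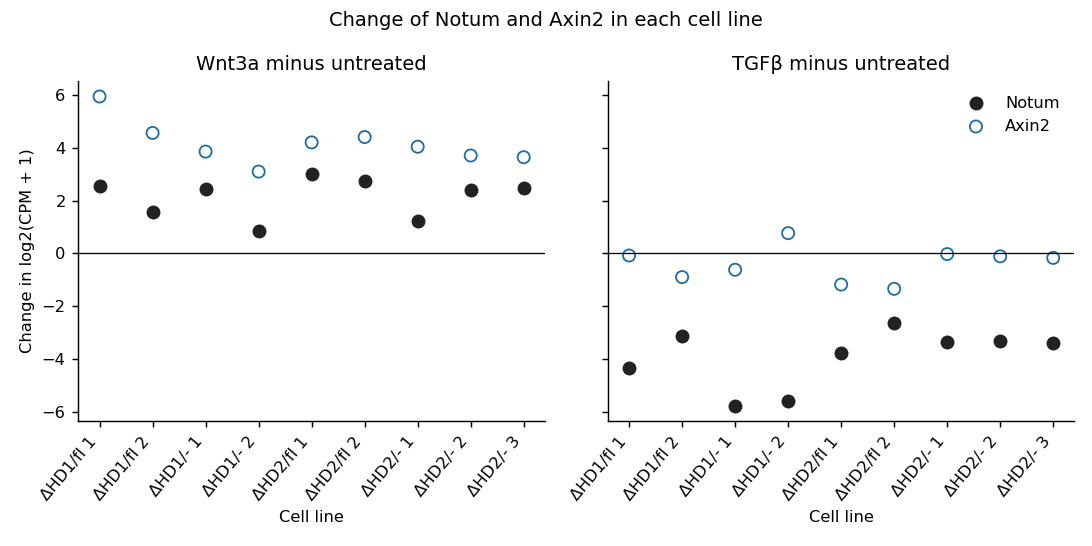
Change in log2(CPM + 1) with Wnt3a (left) and with TGFβ (right) for Notum (filled) and Axin2 (open) in each of the 9 cell lines, 1 library per point and treatment. Axin2 rose more than Notum with Wnt3a in every line. With TGFβ Notum changed by -5.78 to -2.64, and Axin2, which at 2.97 CPM or less untreated had little room to fall on this scale, by -1.34 to 0.77.

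Notum was then placed among the other secreted or membrane antagonists of Wnt signaling. Of 20 such genes listed beside Notum, 8 reached 1 CPM in at least 2 libraries. They include the Wnt-binding Sfrp1, the Dickkopf coreceptor Kremen1, and Rnf43 and Znrf3, which remove Frizzled from the membrane. Most Dickkopf genes, Wif1, Frzb and Sost were below that level. Per kilobase of exon, Notum ranked first of these 9 genes in 4 of 9 untreated lines and Sfrp1 in 4. With Wnt3a Notum ranked first in 7 of 9 lines and no lower than second in any. With TGFβ it ranked first in 1 line, ΔHD1/fl line 2, and as low as seventh. Its median went from 15.1 CPM per kb untreated to 84.4 with Wnt3a and 0.487 with TGFβ, while that of Kremen1 stayed between 8.91 and 11.7 and that of Znrf3 between 4.40 and 5.55. The median of Sfrp1 was 32.4 untreated, 25.2 with Wnt3a and 8.79 with TGFβ, and its level was lower with TGFβ in 9 of 9 lines. Rnf43, at medians of 0.153, 0.202 and 0.115 CPM per kb, had higher values with Wnt3a in 8 lines and lower values with TGFβ in 8 lines.

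None of the 8 antagonists tested was called in the mean Wnt3a or TGFβ response over the 4 genotypes (limma, adjusted p of at most 0.05 and a log2 fold change of at least 1 in size). Over all genes 0.0226% were called with Wnt3a and 5.42% with TGFβ (1.86% higher and 3.56% lower). With cell line as a block 0.241% and 8.92% of genes were called, and of the antagonists 3 were then lower with TGFβ. These were Sfrp1 (-1.29, limma adjusted p 0.00121), Sostdc1 (-1.14, adjusted p 9.91e-05) and Igfbp4 (-1.26, adjusted p 0.0186). Sostdc1 had a median of 0 CPM under each treatment and was lower with TGFβ in 3 lines and higher in 1, so its mean change came from few lines. The median log2 fold change of the antagonists was 0.18 with Wnt3a and -0.19 with TGFβ, against -0.06 and -0.16 over all genes. Under another scaling, by the median of ratios, the median of all genes with TGFβ was -0.02.

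**Figure D3:**
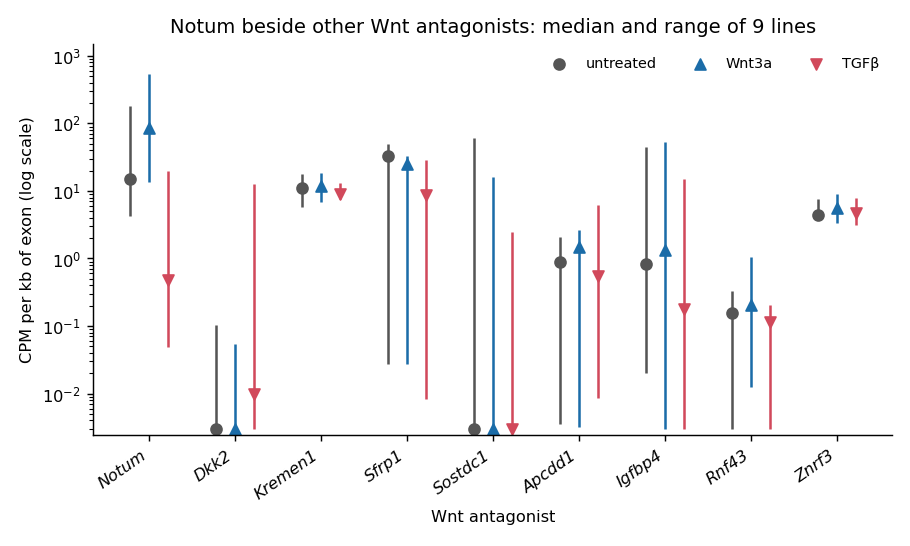
Level per kilobase of exon (CPM per kb, log axis) of Notum and the 8 other Wnt antagonists that were tested. Symbols are medians and vertical lines the range over 9 lines, for untreated (circles), Wnt3a (triangles up) and TGFβ (triangles down); values below 0.003 are drawn at 0.003. The median of Notum is at 84.4 with Wnt3a and at 0.487 with TGFβ.

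The genes that make, carry and receive the substrates of Notum were followed in the same libraries. Of 9 genes for Wnt acylation, secretion and glypican carriage, 7 were tested and none was called with either cytokine, where 0.0226% of all genes were called with Wnt3a and 5.42% with TGFβ. Porcn was at a median of 19.7 CPM untreated, 21.6 with Wnt3a and 14.2 with TGFβ, and Wls, which carries lipidated Wnt proteins to the cell surface, was at 172, 210 and 231 CPM. Gpc4 and Gpc6, glypicans that hold Wnt proteins and to which Notum binds at the cell surface, were at medians of 72.0 and 69.0 CPM untreated, 43.9 and 52.5 CPM with Wnt3a, and 107 and 29.5 CPM with TGFβ. Both had lower values with Wnt3a in 9 of 9 lines. Gpc1, a glypican at higher levels, went the other way. Its medians were 291 CPM untreated, 367 with Wnt3a and 517 with TGFβ, and it was higher in 8 of 9 lines with either cytokine.

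Of 19 Wnt ligand genes, 10 were tested. With TGFβ 2 were called higher and 2 lower, where 1.86% of all genes were called higher and 3.56% lower, and with Wnt3a none. Wnt9a, at 1.62 ± 0.28 with Wnt3a and higher in 9 of 9 lines, missed the threshold (SE; limma adjusted p 0.0549) and was called in 5 of 15 alternatives, with cell line as a block among them (adjusted p 0.0342). Wnt11 rose by 3.47 ± 0.57 on the log2 scale (SE; limma adjusted p 0.000706) and Wnt9a by 1.90 ± 0.28 (adjusted p 0.00033). Wnt4 fell by 2.03 on the log2 scale (limma adjusted p 0.00704) and Wnt10a fell by 2.22 (adjusted p 0.0376). The blocked fit also called Wnt7b, higher with TGFβ (1.24, limma adjusted p 0.00357). The Wnt4 call was lost without ΔHD2/fl line 1 (adjusted p 0.0518), and that of Wnt10a in 10 of 15 alternatives, with adjusted p of up to 0.141. Transcripts of Wnt3a, the ligand added to the culture, reached at most 0.0805 CPM in any library, and this gene was not tested. Among 22 receptor and R-spondin genes, 18 were tested. None was called with Wnt3a, and with TGFβ none was called higher (1.86% of all genes) and 2 lower (3.56% of all genes), the receptor Fzd7 (-1.68 ± 0.44, SE; limma adjusted p 0.0147) and the R-spondin receptor Lgr4 (-1.25 ± 0.36, adjusted p 0.0249). Both calls were lost without ΔHD1/- line 1 or ΔHD2/fl line 1, with limma adjusted p of up to 0.0636 and 0.109 over the alternatives. In the blocked fit the R-spondin receptor Lgr6 was also called, higher at 2.87 (limma adjusted p 2.3e-05) and higher in 8 of 9 lines.

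Of 22 canonical Wnt targets, Notum aside, 17 were tested, some of which, such as Znrf3 and Lgr5, also stand in the lists above. Axin2 was called higher with Wnt3a (4.22 ± 0.19, SE; limma adjusted p 7.26e-10) and no other member was. Ccnd1, the cyclin D1 gene, was at 0.98 ± 0.33 on the log2 scale (SE; limma adjusted p 0.800) and higher in 9 of 9 lines. Sox9 went the other way, at -0.50 with Wnt3a and lower in 9 of 9 lines, and was not called either. With TGFβ, where 5.42% of all genes were called, the members called were Ccn4 and Cd44, higher at 4.41 and 1.35, and the ephrin receptor Ephb3, lower at -1.62 (limma adjusted p 0.000515, 0.0211 and 0.000185). The Cd44 call was lost when any 1 of 4 lines was left out (limma adjusted p of up to 0.110). Ephb2 was also called in the blocked fit, higher at 1.95 (limma adjusted p 0.000333). The median TGFβ change over the list was -0.01 against -0.16 over all genes.

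The TGFβ treatment was read from 16 TGFβ target genes, all tested. Of these 7 were called higher (11 with cell line as a block) and none lower, at a median log2 fold change of 1.49, where 5.42% of all genes were called (8.92% with the block). The calls of Skil and Pmepa1 were lost in 4 and 2 of 15 alternatives. Itga5, a subunit of the fibronectin receptor, rose by 2.92 ± 0.46 (SE; limma adjusted p 0.000483). Of 15 epithelial marker genes none was called, where 5.42% of all genes were. The blocked fit called 6 of them lower and 1 higher, where 8.92% of all genes were called. Of 11 mesenchymal marker genes 1 was called, S100a4, which was lower at -1.83 (limma adjusted p 0.0439, lost in 11 of 15 alternatives). Cdh2, Zeb2 and Fbn1 were also called in the blocked fit, higher at 1.21, 1.29 and 1.91 (limma adjusted p 0.00179, 0.00802 and 0.00479). Of the tested fibroblast markers (6) none was called, of the immune and endothelial markers (3) Cdh5 was higher (lost in 3 of 15 alternatives, at medians of 0.913 CPM or less), and of the luminal and basal markers (9) Trp63 was lower (limma adjusted p 0.0472, called in 2 of 15 alternatives). By the blocked fit the fibroblast marker Col6a1 and the luminal and basal markers Krt5, Krt14 and Esr1 were also lower, at -2.73, -2.12, -2.09 and -1.20 (limma adjusted p 0.00212, 0.00412, 4.38e-05 and 0.00301). ΔHD1/fl line 2, with Cdh1 and Epcam near 0, had the highest Notum under every treatment and, as a CPM ratio, its smallest fall with TGFβ. ΔHD1/- line 2, with Cdh1 likewise near 0, had the next to largest fall. In ΔHD1/- line 1, with the largest fall of Notum, Cdh1 went from 817 CPM untreated to 4.29 CPM with TGFβ and Epcam from 263 to 12.5 CPM. Epithelial marker genes in sum spanned 139 to 6150 CPM untreated and 183 to 8139 CPM with TGFβ, and their part in the Notum levels was not tested.

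Of the 13270 genes, 29 (0.219%) were higher with Wnt3a and lower with TGFβ in all 9 lines. The opposite combination was held by 6 genes, a rise with both cytokines by 35 and a fall with both by 146. The 29 genes were ranked by the smaller of both mean changes, and Notum stood first with 2.15 and -3.92. After it came Msln, the gene of the cell surface protein mesothelin (1.71 and -2.73), Card14, a scaffold of NF-κB signaling in keratinocytes (1.43 and -1.58), and Sbsn, the gene of the secreted epidermal protein suprabasin (1.26 and -2.68). Adgrf4, an adhesion receptor gene, and Cyp4f39, whose product makes ultra-long-chain hydroxy fatty acids of the skin barrier, had 1.81 and -1.23, and 2.71 and -0.82. Foxo6, Ephb6, Spns3 and Suox made up the first 10.

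The levels of these genes differed widely. Msln was at a median of 361 CPM untreated, 947 with Wnt3a and 52.6 with TGFβ, and Sbsn at 42.7, 85.1 and 4.50 CPM. Cyp4f39 was near the detection limit except with Wnt3a, at 0.126, 15.9 and 0 CPM. Aqp5, a water channel gene, had the next largest TGFβ fall of the 29 after Notum, at -3.14, with a Wnt3a change of 0.36. The least move of Notum in any line and treatment was 0.86, against 0.49 for Sbsn and 0.40 for Msln. At the edge, the least move of Uqcc2, Mcu and Card14 was 0.0003, 0.0022 and 0.0031, and just outside, the worst move of Pef1 was -0.0002 and that of Sult2b1 -0.0045. A further 85 genes missed the pattern in exactly 1 of 18 comparisons. The number of genes of this pattern was 46 to 55 when ΔHD1/fl line 2 (48), ΔHD1/- line 2 (55) or ΔHD2/- line 1 (46) was left out.

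**Figure D4:**
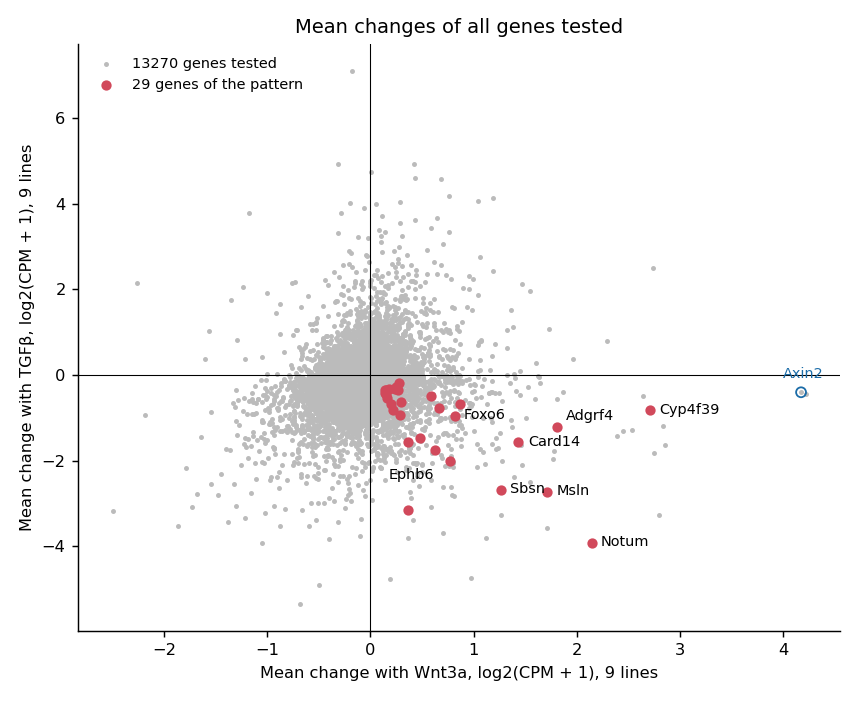
Mean change in log2(CPM + 1) with Wnt3a (horizontal) and with TGFβ (vertical) over 9 lines, for the 13270 genes tested (grey), with the 29 genes that were higher with Wnt3a and lower with TGFβ in every line in red and the leading 8 named. Both axes use the same untreated libraries. Of the 29, Notum has the lowest position, at 2.15 and -3.92, while other genes in the lower right part (grey) missed the pattern in at least 1 line, and Axin2 (blue circle), at 4.17 and -0.40, lies to its right near the horizontal axis.

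The genes whose pattern was most like that of Notum were found by the Pearson correlation of log2(CPM + 1). Over all 27 libraries, which share 9 lines and 3 treatments, the first 10 had r from 0.892 to 0.856. Acss2, the acetyl-CoA synthetase of the cytosol, led with 0.892, followed by Bckdk, Tfb1m, Slc43a2, Gatc, Neat1, Rarg, Slurp1, Rpusd1 and Tbl2. Each of these 10 was lower with TGFβ in 9 of 9 lines, as were 15.7% of all genes. With Wnt3a each was higher in 3 to 8 of 9 lines. The 10 were picked by likeness to Notum in these same libraries, so this is a description. Slurp1, a secreted protein of stratified epithelia, moved most, from a median of 5.05 CPM untreated to 107 with Wnt3a and 0.0355 with TGFβ. Rarg, a retinoic acid receptor gene, was at 265, 247 and 95.7 CPM.

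After each line's own mean was subtracted, the order changed. Ephb6, a kinase-dead ephrin receptor gene, led with r = 0.970, followed by Nfe2l2, the transcription factor of the oxidative stress response (0.964), and Aldh3a1, an aldehyde dehydrogenase gene (0.964). The next were Il17rc, Tent5b, Mink1, Gid8, Dolpp1, Kctd9 and Clip4, down to 0.951. No gene was among the first 10 by both measures. Ephb6 was at a median of 183 CPM untreated, 294 with Wnt3a and 39.4 with TGFβ, and Aldh3a1 at 295, 645 and 5.08 CPM. Ephb6, Tent5b and Dolpp1 were also among the 29 genes (0.219% of all genes). Both lists were drawn from the same libraries, so this overlap is a description too. Axin2 had r = 0.689 over all libraries and 0.775 after subtraction. These correlations are across libraries that share lines and controls, and say nothing of shared control.

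The genes on either side of Notum on chromosome 11 were measured to see whether the region moved with it. Of the 5 annotated genes on each side, 9 had a row in the table and 7 were tested. The nearest of them, Myadml2, 5450 bp from Notum, was at or under 0.089 CPM in every library. The antisense genes Notumos and Myadml2os, which overlap Notum, are not counted among these neighbours. Mafg and Pycr1 on that side had mean TGFβ changes of 0.01 and 0.30. On the other side Aspscr1, whose gene body starts 11779 bp from Notum, changed by -0.82 ± 0.15 on the log2 scale with TGFβ (SE; limma adjusted p 0.00151) and was lower in 9 of 9 lines. Lrrc45, Cenpx and Rac3 had -0.82, -0.73 and -0.71 (limma adjusted p 0.0129, 0.0152 and 0.0389), and Dcxr had -0.42 (adjusted p 0.356). None reached the fold change limit, so 0 of 7 were called with TGFβ, where 5.42% of all genes were. With cell line as a block the limma adjusted p was 3.2e-05 for Aspscr1, 2.2e-06 for Lrrc45, 0.000177 for Cenpx and 0.000762 for Rac3. Small falls with TGFβ were common, as 3153 of the 13270 genes were lower at an unadjusted p under 0.05 (limma without the block). With Wnt3a the 7 genes lay between -0.18 and 0.37, and 0 of 7 were called, with a limma adjusted p of 1 each.

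**Figure D5:**
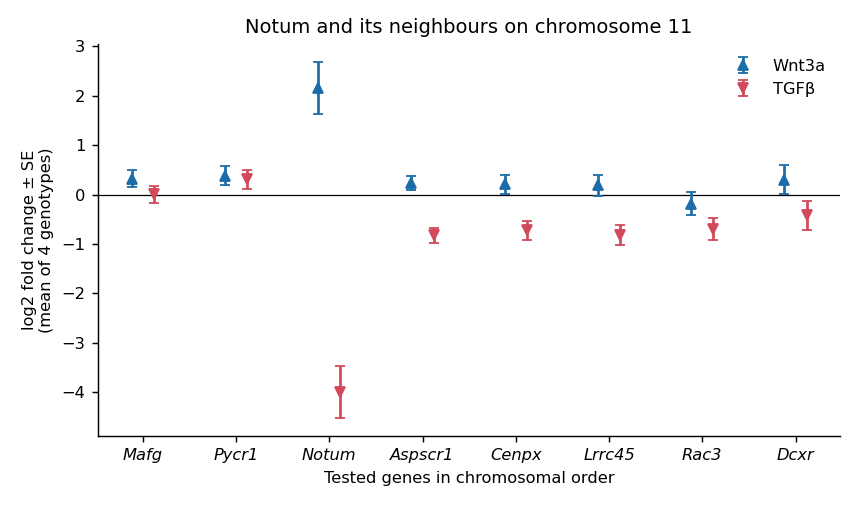
Mean log2 fold change over the 4 genotypes (limma, error bars are SE) with Wnt3a (triangles up) and TGFβ (triangles down) for Notum and the tested genes among the 5 on either side, in chromosomal order. Notum stands at 2.16 and -3.99, the neighbours between -0.82 and 0.37.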

How the data were processed

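RNA of 27 cultures (9 cell lines under 3 treatments, 12 groups) was sequenced as stranded mRNA libraries in single reads. The authors aligned reads to mm10 with STAR and counted unique reads in exons of RefSeq genes with QuasR. The deposited values are CPM, per library, with no further scaling by the authors. Reads were recovered from the CPM steps, and 100% of values came out whole (tolerance 0.05 read). Of 24454 Entrez identifiers, 24374 matched a symbol of GRCm38.p6, the build also called mm10. Per the labels the libraries were run on a NovaSeq, while the methods also name another instrument. 

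Genes reaching 1 CPM in 2 or more libraries (13270) were fitted on log2(CPM + 1) with limma 3.58.1 (trend and robust), all 27 libraries and 12 group means in 1 fit. Called genes had a p no higher than 0.05 after Benjamini-Hochberg adjustment and moved by 1 or more on the log2 scale. Values per line were compared with two-sided exact permutation tests over all 126 assignments, doubling the smaller tail (1 test was checked with scipy 1.17.1). They were adjusted over 10 tests, of which the 4 on responses are not read as tests, nor are the 4 limma differences in response. Ratio intervals are exact binomial at 95% and, like the limit of 3 reads, cover counting error only, since reads carry no molecular identifiers. The median depth was 25.96 M reads. Lengths per kilobase are the union of GENCODE exons. Libraries of 1 cell line deviated together from their group means (r 0.509 to 0.940, 27 pairs), because a replicate number stands for a line. Cell line was therefore also used as a block in the treatment comparisons. The labels speak of 2 lines from different mice per genotype, which does not cover all 3 ΔHD2/- lines. Recombined lines were made in culture and may share a tumour with an fl line, so the 9 lines need not be independent, and p-values measure the spread between these lines.

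The gene, the gene lists and the tests were chosen with earlier results of these data known. Named were Notum, list members, the 10 most alike genes by each measure, the 10 leading genes of the pattern (and its genes at the edge), and the 5 genes on each side; Aqp5 was named after its values were seen. Alternatives tried were median-of-ratios scaling, a pseudocount of 0.1, no filter, the block, edgeR 4.0.16 on recovered reads, compared groups alone, other thresholds, ΔHD2/- lines 2 and 3 averaged, and each line left out. The fit was tried before use on simulated counts without differences between cell lines. This trial says nothing of how the fit without a block handles such differences. A gene of the lists is not reported here.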

Additional observations from a re-analysis of the deposited data

Results flagged for a closer look

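In the 15 sets of 4 to 9 lines examined for an outlying line (untreated, Wnt3a and TGFβ levels and both changes of Notum, over all 9, the 5 recombined and the 4 fl lines), 1 value stood out by Dixon's ratio. The TGFβ level of ΔHD1/fl line 2 was 5.62 on the log2(CPM + 1) scale (48.1 CPM), and its gap to the next line was 0.651 of the whole range, above the critical value of 0.493. Chance flags about 1 in 20 such sets. The next highest line with TGFβ was at 3.20 CPM. This is the line in which Cdh1, Epcam, Krt8 and Krt18 were nearly absent, and it had the highest Notum without cytokine and with Wnt3a too. The part of either in the value was not tested.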

How the results depend on the processing

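In the 6 limma comparisons of Notum between genotypes the adjusted p ranged from 0.0581 to 1 over the alternatives. The mean changes over 9 lines kept their direction, at 2.04 to 2.31 for Wnt3a and -4.84 to -3.69 for TGFβ.

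The direction turned in 6 differences. The Wnt3a response of ΔHD1/- minus ΔHD1/fl was 0.059 with edgeR and -1.20 to 0.38 over the lines left out (0.0871 without ΔHD1/fl line 1, 0.381 without ΔHD1/- line 2). The TGFβ response of ΔHD2/- minus ΔHD2/fl was 0.215 with edgeR and -0.72 to 0.40 (0.404 without ΔHD2/fl line 2). ΔHD2/- against ΔHD2/fl was -1.09 to 0.59 with Wnt3a (0.542 without ΔHD2/fl line 1, 0.586 without ΔHD2/- line 1) and -0.12 to 1.26 untreated (-0.12 without ΔHD2/fl line 2). Without ΔHD1/fl line 2, recombined against fl lines untreated was 0.296 (range -1.46 to 0.296), and ΔHD2 against ΔHD1 lines with TGFβ was 0.386 (range -1.43 to 0.386). The causes were not tested.

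Genes called in the mean Wnt3a response numbered 3, and 5 with no filter, 32 with cell line as a block, 304 at an unadjusted p of 0.05 and a 1.5-fold change, and 1 to 81 over the lines left out. For TGFβ they numbered 719, and 1184 with that block, 2161 at the unadjusted limits and 455 to 933 over the lines left out; 34.4% were higher, or 50.2% under median-of-ratios scaling. The genes of the Notum pattern numbered 29, and 32 to 55 over the lines left out.

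A recombined and an fl line of the same number deviated together at r 0.117 to 0.472 in the ΔHD1 and 0.0871 to 0.190 in the ΔHD2 family. They share only a number as far as the labels say. With the number, not the cell line, as a replicate block, ΔHD1/- against ΔHD1/fl with TGFβ kept -3.60 (limma adjusted p 0.121), and no genotype comparison of Notum was called. The 3 Notum reads of ΔHD1/- line 1 with TGFβ limit its ratio, and edgeR gave -6.86 for ΔHD1/- against ΔHD1/fl there.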
